A study of Mus musculus with 10 samples.

Results

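The cells described here are Sst-high interneurons from dissected embryonic mouse cortex. They were selected on their own counts of Sst, the gene of the peptide somatostatin. A cell was taken when it held at least 5 UMIs of Sst and at most 2 UMIs of Neurod6, a transcription factor gene of excitatory neurons. A UMI (unique molecular identifier) stands for a single captured RNA molecule. Cells under 1000 UMIs or with over 10% mitochondrial UMIs had been set aside, and the rule took 1263 of the 65779 that remained. The levels of Sst and Neurod6 in these cells follow from the rule and are given only as a description.

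Cortex was dissected from 10 embryos at E16.5, and a 10X Genomics 3′ library was made from the cells of each embryo. The study also assigned clusters of these cells to striatal inhibitory neurons and to the ganglionic eminence. Whether some Sst-high cells came from outside the cortex was not tested. The 3 WT embryos had 2 intact copies of Gatad2b, the 4 Het embryos were Gatad2b stop/+ and the 3 KO embryos were Gatad2b stop/stop, all on a C57BL/6N-A tm1Brd background. The stop allele is a germline gene trap with LacZ in an intron of Gatad2b, so all cells of a mutant embryo carry it, and the exons after the trap stay in place. Gatad2b encodes a subunit of NuRD, a complex that joins chromatin remodelling to histone deacetylation. The library names carry 1 of 2 prefixes whose meaning is not stated: the 3 WT embryos and Het replicate 4 share the first, and Het replicates 1 to 3 and the 3 KO embryos share the second. Genotype and prefix cannot be told apart between KO and WT, while KO and Het replicates 1 to 3 are compared within a single prefix.

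Somatostatin interneurons are GABAergic cells born in the medial ganglionic eminence (MGE), from which they migrate into the cortex. Nkx2-1, Lhx6, Sox6, Satb1 and Maf are transcription factor genes of this lineage. In the mature cortex these interneurons inhibit the dendrites of pyramidal neurons. Npy, the gene of neuropeptide Y, and Calb1, the gene of the calcium-binding protein calbindin, mark overlapping subtypes of them.

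Members per embryo numbered 133, 155 and 154 in WT, 81, 141, 115 and 180 in Het, and 96, 74 and 134 in KO. From 5147 to 8103 cells were kept per embryo, with 82872641 to 123737385 UMIs. Any pair of libraries shared 4 to 19 cell barcodes, at most 0.325% of the smaller library. The summed hemoglobin genes of the members ranged from 35.6 to 13699 CPM (UMIs of a gene per 1000000 UMIs) in Het, from 131 to 10005 in WT and from 46.1 to 63.6 in KO, so that the members of some WT and Het embryos held far more blood RNA than those of any KO embryo, and its part in the results was not tested.

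The 2 peptide genes that mark the members, Sst and Npy, are shown with the 250 bases before their RefSeq start sites (GRCm38.p6), because the selection rests on Sst and the genotype difference in detection described below on Npy. Capitals mark TGACGTCA, the palindromic cAMP response element through which CREB binds the somatostatin promoter. The Sst stretch lies at chr16:23890845-23891094 on the minus strand, and the Npy stretch at chr6:49822460-49822709 on the plus strand.
Sst: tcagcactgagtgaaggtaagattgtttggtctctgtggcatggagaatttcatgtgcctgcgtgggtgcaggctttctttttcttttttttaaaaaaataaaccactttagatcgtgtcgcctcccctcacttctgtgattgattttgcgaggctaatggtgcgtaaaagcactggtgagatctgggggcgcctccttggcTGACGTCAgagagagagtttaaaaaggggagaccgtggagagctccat
Npy: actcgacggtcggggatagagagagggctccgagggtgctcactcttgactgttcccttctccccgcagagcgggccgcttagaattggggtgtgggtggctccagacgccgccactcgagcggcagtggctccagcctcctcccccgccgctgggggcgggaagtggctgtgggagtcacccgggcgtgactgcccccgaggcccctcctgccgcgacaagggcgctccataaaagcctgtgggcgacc
The Sst stretch holds the element once, beginning 48 bases before the start site, and the Npy stretch does not hold these letters. Of 32851 promoter stretches of this length in RefSeq, 508 (1.55%) hold it.

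The members were not mainly shallow cells. Their UMIs per cell ranged from 1000 to 76890, with a median of 9784 and quartiles of 7024 and 13863. The median was 13874 in all kept cells, 8146 in other Lhx6 cells with few Sst UMIs and 18047 in cells with at least 3 UMIs of Neurod6. The second of these groups, called Sst-low Lhx6 cells below, had at most 4 UMIs of Sst, at most 2 of Neurod6, at least 1 of Lhx6 and a UMI of a GABAergic gene (5478 cells). Only 55 members (4.35%) held fewer than 3000 UMIs, 597 held at least 3000 but under 10000, and 611 held 10000 or more. The shallow 55 stood apart from the rest, with 85.4 Sst UMIs per 10000 UMIs against 48.8 and 48.3 in the deeper classes. A minimum of 5 Sst UMIs asks for a larger share of a shallow cell's UMIs, and its part in this was not tested. The median mitochondrial share of these 55 cells was 6.12% against 3.90% and 4.07%. Of them, 18.2% were marked as likely doublets against 8.21% and 7.20%.

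**Figure D1:**
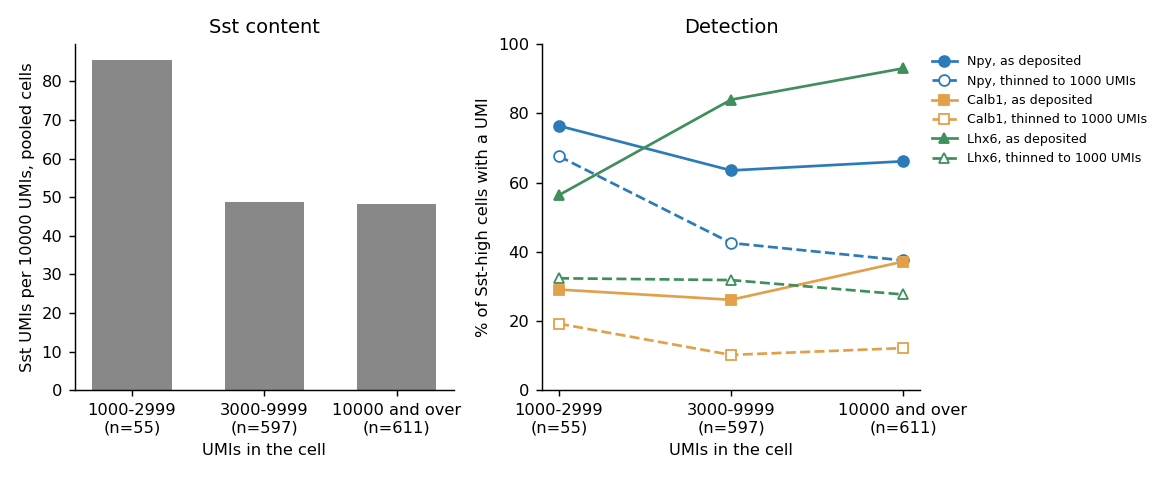
Sst-high cells in 3 classes of UMIs per cell, shown on the x axis of both panels. The left panel gives Sst UMIs per 10000 UMIs of the pooled cells, 85.4 in the 55 shallowest cells against 48.8 and 48.3. The right panel gives the percent of cells with at least 1 UMI of Npy, Calb1 or Lhx6, as deposited (filled) and after thinning each cell to 1000 UMIs (open). Detection of Lhx6 rose with depth as deposited, from 56.4% to 93.0%, but not after thinning.

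Sst itself was spread widely among the members, with a median of 18 UMIs per cell, quartiles of 9 and 49.5 and a highest count of 1215. Taken separately, the highest share of Sst in a single cell's UMIs was 6.47%. The members held 84.8% of all Sst UMIs of the kept cells. Cells just inside the threshold were much like those just outside it. The 84 members with exactly 5 Sst UMIs had Lhx6 in 91.7%, Sox6 in 76.2% and Npy in 41.7%. The 128 cells with 4 Sst UMIs, which were left out, had them in 85.2%, 71.1% and 45.3%. On the Neurod6 side, 8.33% of the 60 members with 2 Neurod6 UMIs were marked as doublets. Of the 12 cells with 3 Neurod6 UMIs, which were left out, 33.3% were marked. Of all 142 cells with at least 5 Sst UMIs that were left out for 3 or more Neurod6 UMIs, 63.4% were marked, and their median was 26103 UMIs per cell.

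The label of MGE-derived interneurons was checked against markers that the rule did not use. Lhx6 was detected in 87.1% of the members, Maf in 86.9%, Sox6 in 79.4% and Satb1 in 77.5%. The genes of GABA synthesis Gad1 and Gad2 were detected in 74.7% and 87.0%, and the vesicular GABA transporter gene Slc32a1 in 72.3%. Nkx2-1, which is switched off in cortical interneurons once they leave the eminence, was detected in 6.25%. The 6 MGE markers summed to 2273 to 3190 CPM in every embryo, against 1847 to 2431 in Sst-low Lhx6 cells and 207 to 269 in 5354 Adarb2 cells. The Adarb2 cells were GABAergic cells with a UMI of Adarb2 and none of Lhx6, and the Sst-low Lhx6 cells were taken for Lhx6, so that part of this contrast follows from how the groups were made. By their own markers the Adarb2 cells were a mixed group, with 2947 to 4060 CPM of LGE and striatal markers and 1084 to 1646 CPM of CGE markers. The CGE marker Vip had no UMI in any of the 1263 members, which allows a share of cells with a UMI of up to 0.238%. It was found in 0.0934% of the Adarb2 cells, below that limit, so Vip does not separate these groups at this age. Adarb2 was found in 6.25% and Prox1 in 4.43%.

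Markers of other cells were present at different levels. The 7 progenitor markers summed to 355 to 546 CPM in WT, 373 to 504 CPM in Het and 534 to 617 CPM in KO, and to 220 to 400 CPM in Neurod6 cells. The 8 LGE and striatal markers summed to 177 to 411 CPM and the 6 CGE markers to 93.4 to 325 CPM, the latter with medians of 166, 230 and 288 CPM in WT, Het and KO. The 9 excitatory markers, Neurod6 included, summed to 94.5 to 131 CPM in WT, to 42.1 to 70.3 CPM in the Het embryos and to 33.4 to 112 CPM in the KO embryos, and to 2683 CPM or more in Neurod6 cells. The 6 microglial markers stayed under 5 CPM in 9 embryos and reached 271 CPM in a WT embryo. The 4 endothelial markers stayed under 13 CPM in 9 embryos and reached 333 CPM in a KO embryo. The choroid plexus markers were at 0 to 46.7 CPM and the oligodendrocyte precursor markers at 0 to 3.48 CPM. Cell-cycle genes were also rare, with Mki67 detected in 2.85% and Top2a in 3.17% of the members.

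**Figure D2:**
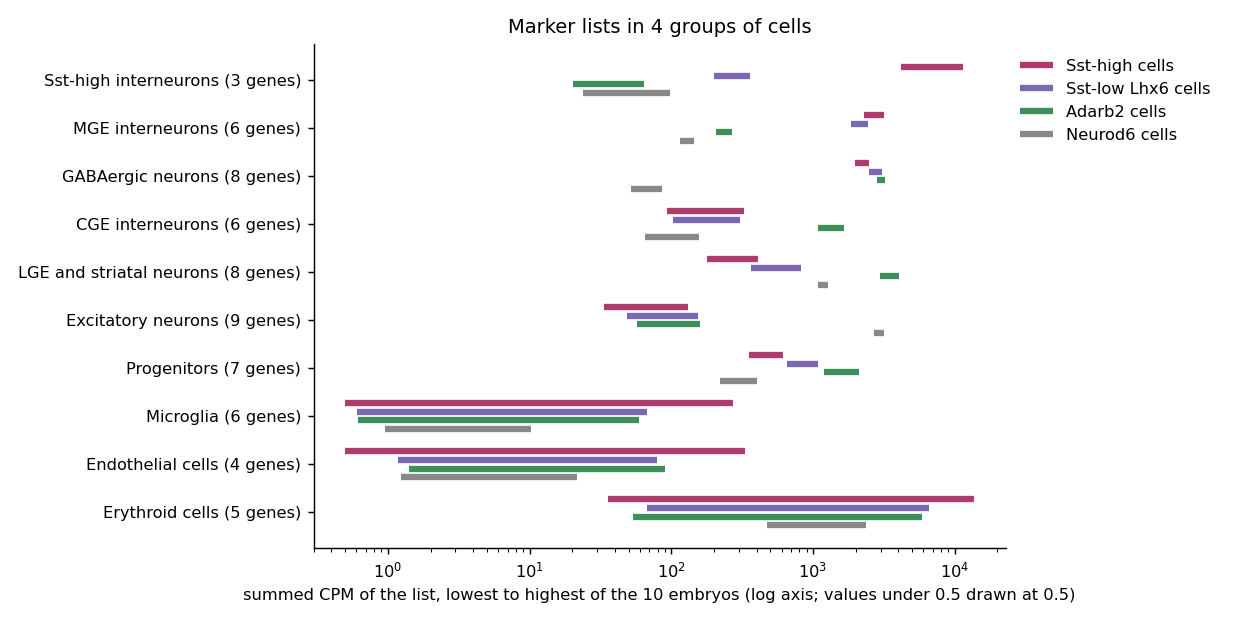
Summed CPM of 10 marker lists (y axis) in Sst-high cells, Sst-low Lhx6 cells, Adarb2 cells and Neurod6 cells, on a log x axis. Each bar runs from the lowest to the highest of the 10 embryos. The 6 MGE markers reached 2273 to 3190 CPM in Sst-high cells and 207 to 269 CPM in Adarb2 cells, and the bars of blood, microglia and endothelium are the longest in Sst-high cells, reaching 13699, 271 and 333 CPM.

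Beside Sst, the genes that set the members apart from Sst-low Lhx6 cells included Npy and subunits of glutamate receptors. The contrast is that of the rule, so these values are a description without a test. Npy had a mean of 1668 CPM over the 10 embryos against 183, and Grin3a, a subunit of NMDA receptors, 76.8 against 9.22. Neto1, an auxiliary subunit of kainate receptors, had 246 against 63.6, and Sema3a, a secreted guidance cue, 87.3 against 24.7. Top2a, a topoisomerase of dividing cells, had 12.1 CPM in the members against 145, and Ccnd2, a cyclin gene, 36.9 against 273.

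Npy was detected in 825 members (65.3%) and Calb1 in 399 (31.6%). Both were detected in 255 cells (20.2%), Npy alone in 570 (45.1%), Calb1 alone in 144 (11.4%) and neither in 294 (23.3%). Median UMIs per cell were 11397 with both, 9521 with Npy alone, 10740 with Calb1 alone and 9400 with neither. Calb1 was found in 30.9% of cells with Npy and 32.9% of cells without. It was more frequent in cells with Npy in 4 of 10 embryos, which were all 3 WT embryos, 1 of 4 Het embryos and 0 of 3 KO embryos, and this difference between genotypes was not tested. Over the 1208 members with at least 3000 UMIs, each thinned to 3000, the shares were 19.3% and 20.7%. Sst content, which the rule selected on, was higher with each of the 2 genes, with 86.9 Sst UMIs per 10000 in cells with both, 49.0 with Npy alone, 34.7 with Calb1 alone and 16.9 with neither. The marked doublets were also more frequent in cells with Npy, at 10.6% with both genes and 11.6% with Npy alone, against 2.78% with Calb1 alone and 2.04% with neither, and their part in this was not tested.

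The Npy and Calb1 classes differed in other genes, which are described here without a test because the cells were divided by expression. Cells with Npy had more Zbtb20 (486 against 215 CPM), a zinc-finger factor gene, and more Igfbpl1 (384 against 185) and Bcl11a (636 against 382). They had less Meis2 (86.8 against 236), a homeobox gene, less Id2 (52.9 against 141) and less Erbb4 (272 against 410), the neuregulin receptor. Cells with Calb1 had more Tac1 (106 against 14.5 CPM), the gene of substance P, and less Npas1 (28.2 against 110), Tshz3 (47.6 against 119) and Reln (108 against 208). Genes used as markers of Sst subtypes ranged widely in detection. Elfn1 was detected in 43.2% of the members, Reln in 40.5% and Grin3a in 23.9%, while Chrna2, Myh8 and Hpse were detected in 0.0792%, 0.238% and 0.317%. Nos1 and Chodl, which together mark long-range projecting cells in the adult, were detected in 3.09% and 4.83%.

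The first question of the design was whether the mutant embryos held fewer Sst-high cells. These cells made up 1.64%, 2.17% and 1.97% of the kept cells in WT, 1.39%, 2.29%, 2.05% and 2.27% in Het, and 1.64%, 1.44% and 2.17% in KO. The 3 groups overlapped. WT averaged 1.93% ± 0.265 (SD, n = 3), Het 2.00% ± 0.424 (SD, n = 4) and KO 1.75% ± 0.378 (SD, n = 3). Two-sided exact permutation tests gave p = 0.771 (Het vs WT), 0.6 (KO vs WT) and 0.4 (KO vs Het). The smallest p that these tests can give is 0.0286 for 3 against 4 embryos and 0.1 for 3 against 3. The 95% exact binomial interval of a single embryo's share was 0.566 to 0.765 percentage points wide, which covers counting error only. The sign of the KO vs WT difference turned with the rule, from -0.178 to 0.268 percentage points (p = 0.3, exact permutation test) when cells with any Neurod6 UMI were left out.

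Median UMIs per member were 8600, 13334 and 10341 in WT, 10159, 8479, 10070 and 10789 in Het, and 9274, 9420 and 9387 in KO. WT replicate 2 was the deepest and the groups overlapped. By exact permutation, p was 0.543 (Het vs WT) and 0.4 (KO vs WT).

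**Figure D3:**
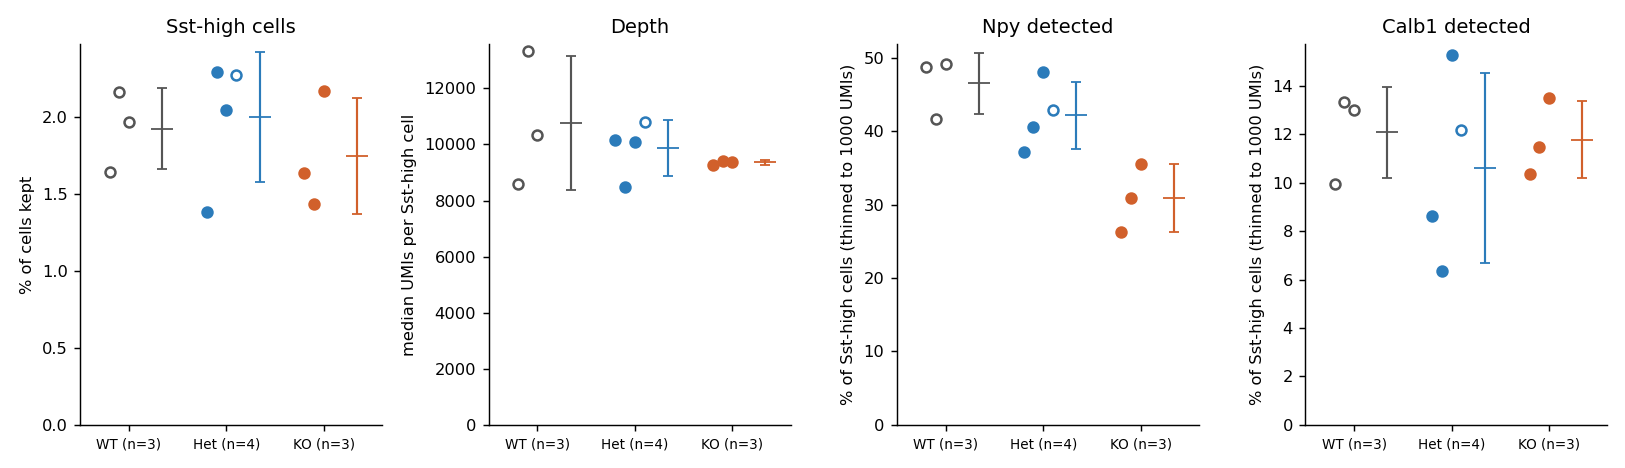
Values per embryo in WT, Het and KO: the share of Sst-high cells, their median UMIs, and the percent with Npy and with Calb1 after thinning each cell to 1000 UMIs. Open points are the libraries of the first name prefix and filled points those of the second, and the horizontal mark with its bar gives the mean ± SD. The 3 KO embryos lie below the 3 WT embryos for Npy, 26.2% to 35.5% against 41.7% to 49.1%, and the groups overlap in the other panels.

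Npy was found in fewer of the Sst-high cells of KO embryos. To compare detection at equal depth, shares were computed for cells thinned to 1000 UMIs. Each share is the mean over cells of the probability that such a draw holds at least 1 UMI of the gene. All shares given after thinning to 1000 UMIs are expected shares of this kind. Npy was then expected in 48.7%, 41.7% and 49.1% of the members in WT, 37.2%, 40.5%, 48.0% and 42.9% in Het, and 26.2%, 30.9% and 35.5% in KO. All 3 KO embryos were below all WT and all Het embryos, and Het overlapped WT. The KO mean was 15.7 percentage points below WT (30.9% ± 4.62 against 46.5% ± 4.16, SD, n = 3 each; exact permutation p = 0.1, the smallest possible). Het averaged 42.2% ± 4.56 (SD, n = 4; exact permutation p = 0.229 against WT). As deposited, without thinning, the means were 73.7% ± 4.09, 64.8% ± 2.78 and 52.6% ± 5.67 in WT, Het and KO. In these counts Het (63.0% to 68.9%) did not overlap WT (69.0% to 76.7%). The Het vs WT difference was -8.85 percentage points (exact permutation p = 0.0571). A comparison with Het was added after these values were seen: KO was 11.3 percentage points below the 4 Het embryos (exact permutation p = 0.0571) and 11.05 below Het replicates 1 to 3, which share its prefix (p = 0.1, exact permutation test).

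The summed level of Npy showed the same direction with less certainty. It was 1983, 1365 and 3013 CPM in WT, 1296, 2131, 2897 and 1166 in Het, and 1144, 917 and 962 in KO. All KO embryos were below the others, but the spread in WT and Het was wide. KO vs WT gave a log2 fold change of -1.07 ± 0.29 (SE) and an adjusted p of 0.0546 by edgeR's quasi-likelihood test, which misses the threshold. When each embryo was left out in turn, the change was between -1.31 and -0.73 and the adjusted p fell under 0.05 in 4 of 10 fits. Over all 24 alternative fits it did so in 11. Lower summed levels can mean fewer cells with the transcript or less of it per cell, and these sums do not tell them apart.

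Npy was also lower in KO outside these cells. In Neurod6 cells, whose Npy UMIs may come from free RNA or from the cells themselves, which was not tested, Npy was found after the same thinning in 3.23% to 4.38% of WT cells, 2.57% to 3.57% of Het cells and 0.761% to 1.13% of KO cells. Without thinning, the WT, Het and KO shares in Neurod6 cells averaged 18.7%, 12.9% and 4.67%. The thinned shares were under those of the members in every embryo. In Sst-low Lhx6 cells the Npy level fell by 0.68 on the log2 scale in KO vs WT (adjusted p = 0.0264, edgeR), and the difference of that change from the one in members was not detected (-0.30, adjusted p = 0.852).

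Calb1 did not differ between genotypes beyond the spread of embryos. After thinning, WT averaged 12.1% ± 1.88 of members with Calb1 (SD, n = 3), Het 10.6% ± 3.93 (SD, n = 4) and KO 11.8% ± 1.61 (SD, n = 3). By exact permutation, p was 0.543 (Het vs WT) and 1 (KO vs WT). Without thinning the shares ranged from 27.8% to 38.1% in WT embryos, 19.1% to 36.5% in Het embryos and 27.0% to 36.6% in KO embryos. In Neurod6 cells Calb1 was found in 0.133% to 0.423% of cells after thinning and in 1.63% to 5.02% without it. Within the 4 classes, cells with neither gene made up 16.2% to 21.3% of members across WT embryos, 18.9% to 27.7% across Het embryos and 26.1% to 35.4% across KO embryos. Cells with Calb1 alone made up 5.26% to 9.68%, 9.22% to 13.6% and 14.9% to 17.7%. These classes were not tested, since they restate Npy and Calb1 detection. They were taken from the counts as deposited, and the part of depth or of free Npy RNA in them was not tested.

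**Figure D4:**
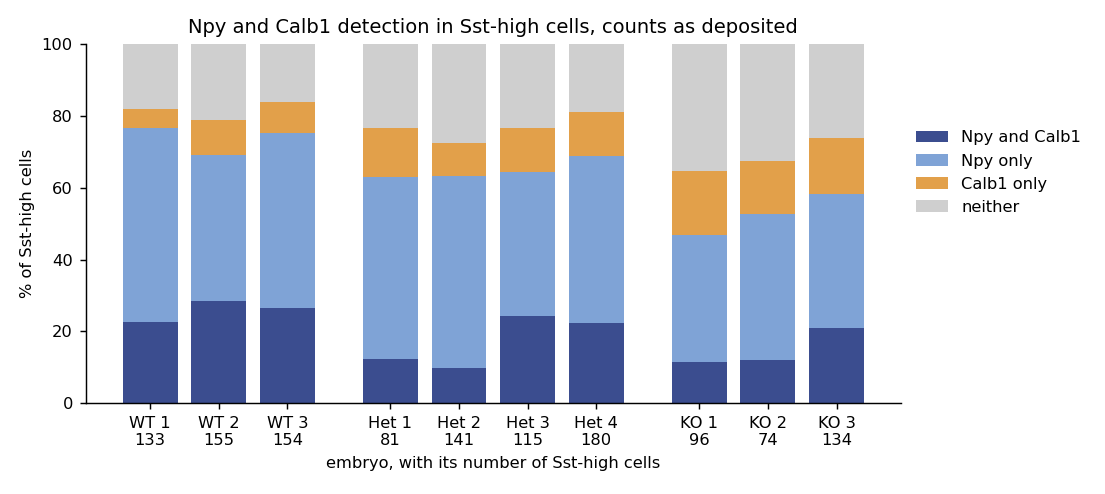
Percent of the Sst-high cells of each embryo (y axis, 0 to 100) with both Npy and Calb1, with Npy alone, with Calb1 alone and with neither, in the counts as deposited. The number of cells is under each bar. Cells with neither gene make up 26.1% to 35.4% in the KO embryos and 16.2% to 21.3% in WT, without correction for depth.

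Gatad2b was read in the members first, as a check of the labels. It had 121, 92.9 and 102 CPM in WT, 85.9, 82.3, 71.9 and 76.4 in Het, and 47.6, 32.0 and 49.5 in KO. The 3 groups did not overlap. It fell by 1.24 ± 0.16 (SE) on the log2 scale in KO vs WT (adjusted p = 0.000465) and by 0.83 ± 0.16 in KO vs Het (adjusted p = 0.0329, both by edgeR). Het vs WT gave -0.41 (adjusted p = 0.636), which did not pass.

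Genes were tested on UMIs summed over the members of each embryo, with edgeR's quasi-likelihood test over all 10 embryos and Benjamini-Hochberg adjustment. Calls needed an adjusted p below 0.05 together with a log2 fold change beyond 0.25 in size. Of 9777 genes tested in Het vs WT, 0 were called (0%), with 641 at an unadjusted p under 0.05 and 8 called by DESeq2. In KO vs WT, 105 genes were higher (1.07%) and 159 lower (1.63%). The lower ones include Neurod6, which the rule limited to at most 2 UMIs per cell. In KO vs Het, 11 were higher (0.113%) and 19 lower (0.194%). The 2 KO comparisons share the KO embryos. With the library prefix as a covariate, which leaves Het replicate 4 as the only link between KO and WT, 3 genes were called in KO vs WT. Without Het replicate 4, so that KO is compared with Het within a prefix, 18 genes were called in KO vs Het.

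Sstr1 and Npy2r, the 2 of 8 somatostatin and NPY receptor genes that were expressed enough to be tested, fell in KO vs WT, where 1.63% of all genes fell. Sstr1, a somatostatin receptor of the inhibitory G-protein class (chr12:58211772-58214444), had 38.6, 36.9 and 38.0 CPM in WT, 24.0, 21.9, 40.5 and 27.7 in Het, and 6.1, 11.5 and 5.7 in KO. The KO embryos were all below the others. Sstr1 fell by 2.35 ± 0.30 (SE) on the log2 scale in KO vs WT (adjusted p = 0.00045) and by 1.97 in KO vs Het (adjusted p = 0.00545). Npy2r, a presynaptic NPY receptor gene, fell by 1.4 ± 0.29 in KO vs WT (adjusted p = 0.0144), and in KO vs Het its value was -0.89 (adjusted p = 0.302). Its KO vs WT call was kept in 17 alternative fits and lost in 7. Sstr2, Sstr3, Sstr4, Sstr5, Npy1r and Npy5r were detected in 1.82% of members or fewer.

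Of 14 peptide precursor genes, 10 were tested and 1 fell in KO vs WT (1.63% of all genes fell), Penk, which encodes enkephalins. Penk was a minor transcript, with 8.8, 12.6 and 13.8 CPM in WT and 3.0, 2.6 and 0.7 in KO. Het replicates 1 to 3 had 1.1, 2.4 and 2.1 and Het replicate 4 had 8.5, so the Het values split by prefix, which rests on Het replicate 4 alone. The call for Penk was kept in 12 alternative fits and lost in 9. The list's median log2 fold change was -0.23, against 0.006 over all genes. The 10 tested genes include Sst, which the rule selected on, so its value in this median is only a description. Tac1 (-1.17, adjusted p = 0.252) and Cort, the gene of the somatostatin relative cortistatin (-0.33, adjusted p = 0.75), did not pass. Among 9 tested genes of peptide processing and secretory granules, Pam, the enzyme that amidates peptides such as NPY, fell by 0.74 in KO vs WT (adjusted p = 0.0495), and the other 8 did not pass, against 1.63% of all genes that fell. The call for Pam was lost in 15 of 25 alternative fits.

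Of 14 genes of Sst interneuron subtypes, 10 were tested and 4 fell in KO vs WT (Reln, Grin3a, Elfn1 and Nos1), against 1.63% of all genes. The other 6 did not pass, and the median log2 fold change was -1.22, against 0.006 over all genes. This list, like the others, was chosen with earlier results of these data known. In KO vs Het 2 of the 10 fell, Reln and Elfn1, against 0.194% of all genes. Reln (chr5:21884454-22344702), which encodes a secreted glycoprotein that positions neurons, had 193, 312 and 238 CPM in WT, 214, 179, 193 and 207 in Het, and 63.9, 53.8 and 89.6 in KO. KO was lower by 1.81 ± 0.18 (SE) on the log2 scale against WT, a fold of 0.285 (adjusted p = 0.000127), and fell by 1.48 against Het (adjusted p = 0.00125). Het overlapped WT and lay above KO in all 4 embryos.

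Elfn1, a postsynaptic adhesion protein that sets facilitating input onto Sst interneurons, showed the same order. It had 116, 123 and 109 CPM in WT, 120, 97.1, 126 and 112 in Het, and 45.6, 37.2 and 66.7 in KO. It fell by 1.16 ± 0.16 in KO vs WT (adjusted p = 0.001) and by 1.13 in KO vs Het (adjusted p = 0.00336). Grin3a (chr4:49661611-49845744) had 105, 153 and 140 CPM in WT, 40.1, 57.2, 104 and 69.7 in Het, and 16.2, 48.7 and 40.2 in KO. Here Het lay between the groups and overlapped KO. Grin3a fell by 1.94 ± 0.30 in KO vs WT (adjusted p = 0.00207), with -1.0 in KO vs Het (adjusted p = 0.237) and -0.94 in Het vs WT (adjusted p = 0.434). Nos1, the neuronal nitric oxide synthase, had 14.5, 17.4 and 13.8 CPM in WT and 0, 2.6 and 1.4 in KO, and fell by 3.51 ± 0.78 (adjusted p = 0.0204). The KO values lay near the floor, which makes the size of this fall uncertain. The call for Nos1 was kept in 16 alternative fits and lost in 6.

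The 10 largest decreases in KO vs WT, under a rule that asked for a call, embryos without overlap and at least 20 CPM, were 2900009J06Rik, Mical2, Sstr1, Klf5, Spon1, Trhde, AF529169, Gda, Grin3a and Fat4. They fell by 1.91 to 2.71 on the log2 scale. Klf5, a zinc-finger transcription factor (chr14:99298691-99315036), had 41.0, 71.2 and 57.0 CPM in WT, 47.0, 50.9, 51.0 and 42.9 in Het, and 7.1, 12.8 and 16.49 in KO. The KO embryos were all far below the other 7. Klf5 fell by 2.19 ± 0.26 in KO vs WT (adjusted p = 0.000265) and by 1.92 ± 0.26 in KO vs Het (adjusted p = 0.00292). Of these 10 genes, Sstr1 and Klf5 passed in KO vs Het.

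The same rule was applied to KO vs Het after the results were seen, and it named 8 further decreases. Npas1, a bHLH-PAS factor of interneurons, had 87.6, 125 and 80.1 CPM in WT, 131, 86.2, 95.7 and 103 in Het, and 26.4, 56.4 and 27.2 in KO. Its change in KO vs Het was -1.56 ± 0.24 (SE, adjusted p = 0.00545), and it fell by 1.5 in KO vs WT (adjusted p = 0.00288). Neto1 had 307, 360 and 287 CPM in WT, 340, 241, 246 and 298 in Het, and 141, 137 and 124 in KO, and fell by 1.07 ± 0.13 in KO vs Het (adjusted p = 0.00125). Reln and Elfn1, described above, were among them. Tshz3, Akap7, Khdrbs3, an RNA-binding splicing factor, and Mgll, an enzyme of endocannabinoid breakdown, fell by 1.12 to 1.31 in KO vs Het. Within the prefix, against Het replicates 1 to 3, Reln, Klf5, Neto1, Sstr1, Elfn1, Npas1, Tshz3 and Akap7 passed with adjusted p of 0.00455, 0.00599, 0.00455, 0.0157, 0.00881, 0.0175, 0.00881 and 0.0256, while Khdrbs3 (0.0849) and Mgll (0.0877) did not.

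Of 11 tested genes of migration and guidance, 2 rose in KO vs WT, against 1.07% of all genes. Epha5, an ephrin receptor, had 1234, 929 and 1241 CPM in WT, 1399, 1279, 1252 and 1298 in Het, and 2294, 1730 and 1863 in KO. It rose by 0.79 ± 0.12 on the log2 scale in KO vs WT (adjusted p = 0.00205) and by 0.59 in KO vs Het (adjusted p = 0.0332). Erbb4 rose by 0.70 in KO vs WT (adjusted p = 0.00484), with 0.40 in KO vs Het (adjusted p = 0.2). All 14 MGE lineage factors were tested. Sox6 rose by 0.49 ± 0.11 in KO vs WT (adjusted p = 0.022) and Npas1 fell, while the other 12, Lhx6, Satb1 and Maf among them, did not pass, where 1.07% of all genes rose and 1.63% fell. The call for Sox6 was kept in 19 alternative fits and lost in 6. Of the 5 tested genes of GABA synthesis and transport 0 passed, with a median of 0.17.

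Of 15 NuRD subunit genes, Gatad2b fell and Cdk2ap1 rose in KO vs WT, and 13 did not pass, where 1.63% of all genes fell and 1.07% rose. Cdk2ap1, a small NuRD subunit, had 16.1, 19.1 and 13.2 CPM in WT, 24.0, 29.0, 18.2 and 19.7 in Het, and 47.6, 49.97 and 35.8 in KO, a rise of 1.41 ± 0.22 (adjusted p = 0.00253). Gatad2a, the paralog of Gatad2b, had a log2 fold change of 0.34 (adjusted p = 0.444). CGE markers were also followed, and of 4 tested 0 passed in KO vs WT, with a median of 1.196. Of 7 tested immediate early and stress genes, which respond to handling of the tissue among other stimuli, Jund rose by 0.70 in KO vs WT (adjusted p = 0.0146) and the other 6 did not pass, against 1.07% of all genes that rose. The call for Jund was kept in 18 alternative fits and lost in 7. The list's median log2 fold change was 1.14 in KO vs WT and 0.96 in Het vs WT, and its part in the other results was not tested. Of 13 channel and chloride transporter genes Kcnc2, a potassium channel of fast-spiking cells, fell by 0.91 (adjusted p = 0.0315) and 12 did not pass, against 1.63% of all genes that fell. The call for Kcnc2 was kept in 16 alternative fits and lost in 8.

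The 10 largest increases in KO vs WT were Akap13, AY036118, Map3k20, Hist1h1e, Cadps2, Igfbp4, Pbx3, Ier5, Cdk2ap1 and Tcim, with log2 fold changes of 1.38 to 2.00. Hist1h1e, a linker histone gene, had 65.9, 50.4 and 69.7 CPM in WT, 159, 194, 112 and 108 in Het, and 251, 192 and 183 in KO. It rose by 1.76 ± 0.21 (SE) in KO vs WT (adjusted p = 0.000265), and Het lay above WT in all 4 embryos (1.2, adjusted p = 0.113). Igfbp4, a binding protein of insulin-like growth factors, had 56.3, 71.2 and 81.2 CPM in WT, 156, 123, 129 and 94.7 in Het, and 288, 196 and 173 in KO, a rise of 1.63 ± 0.19 in KO vs WT (adjusted p = 0.000265). In both genes Het replicate 4, which shares the WT prefix, was the lowest of the Het embryos.

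AY036118, a gene model that collects ribosomal RNA reads, split the Het embryos by prefix, which rests on Het replicate 4 alone. It had 436, 340 and 361 CPM in WT and 294 in Het replicate 4, against 1176 to 1557 in Het replicates 1 to 3 and 1301 to 1723 in KO. Its log2 fold change in KO vs WT was 1.95 (adjusted p = 0.00818), and -0.29 (adjusted p = 0.947) with the prefix as a covariate.

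Of these 10 increases, Cadps2 passed in KO vs Het. Cadps2, which primes dense-core vesicles for release, had 11.3, 7.8 and 17.3 CPM in WT, 24.0, 11.8, 6.3 and 12.51 in Het, and 56.8, 33.3 and 32.3 in KO. It rose by 1.66 ± 0.33 in KO vs Het (adjusted p = 0.0417). Sp9, a zinc-finger factor of GABAergic neurons, had 138, 102 and 130 CPM in WT, 141, 220, 142 and 108 in Het, and 265, 291 and 262 in KO, and rose by 0.84 ± 0.17 in KO vs Het (adjusted p = 0.0453). Zfp536, Golm1, Dusp4, Ap1s2, Camk2d, Mbd6, Gm45768 and Epha5 were the other increases that the rule named in KO vs Het. Against Het replicates 1 to 3 alone, Zfp536 (adjusted p = 0.0405) and Dusp4 (adjusted p = 0.0403) still passed, while Cadps2 (0.104), Sp9 (0.0849), Epha5 (0.0587), Golm1 (0.0678), Ap1s2 (0.104), Camk2d (0.0587), Mbd6 (0.0548) and Gm45768 (0.111) did not.

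**Figure D5:**
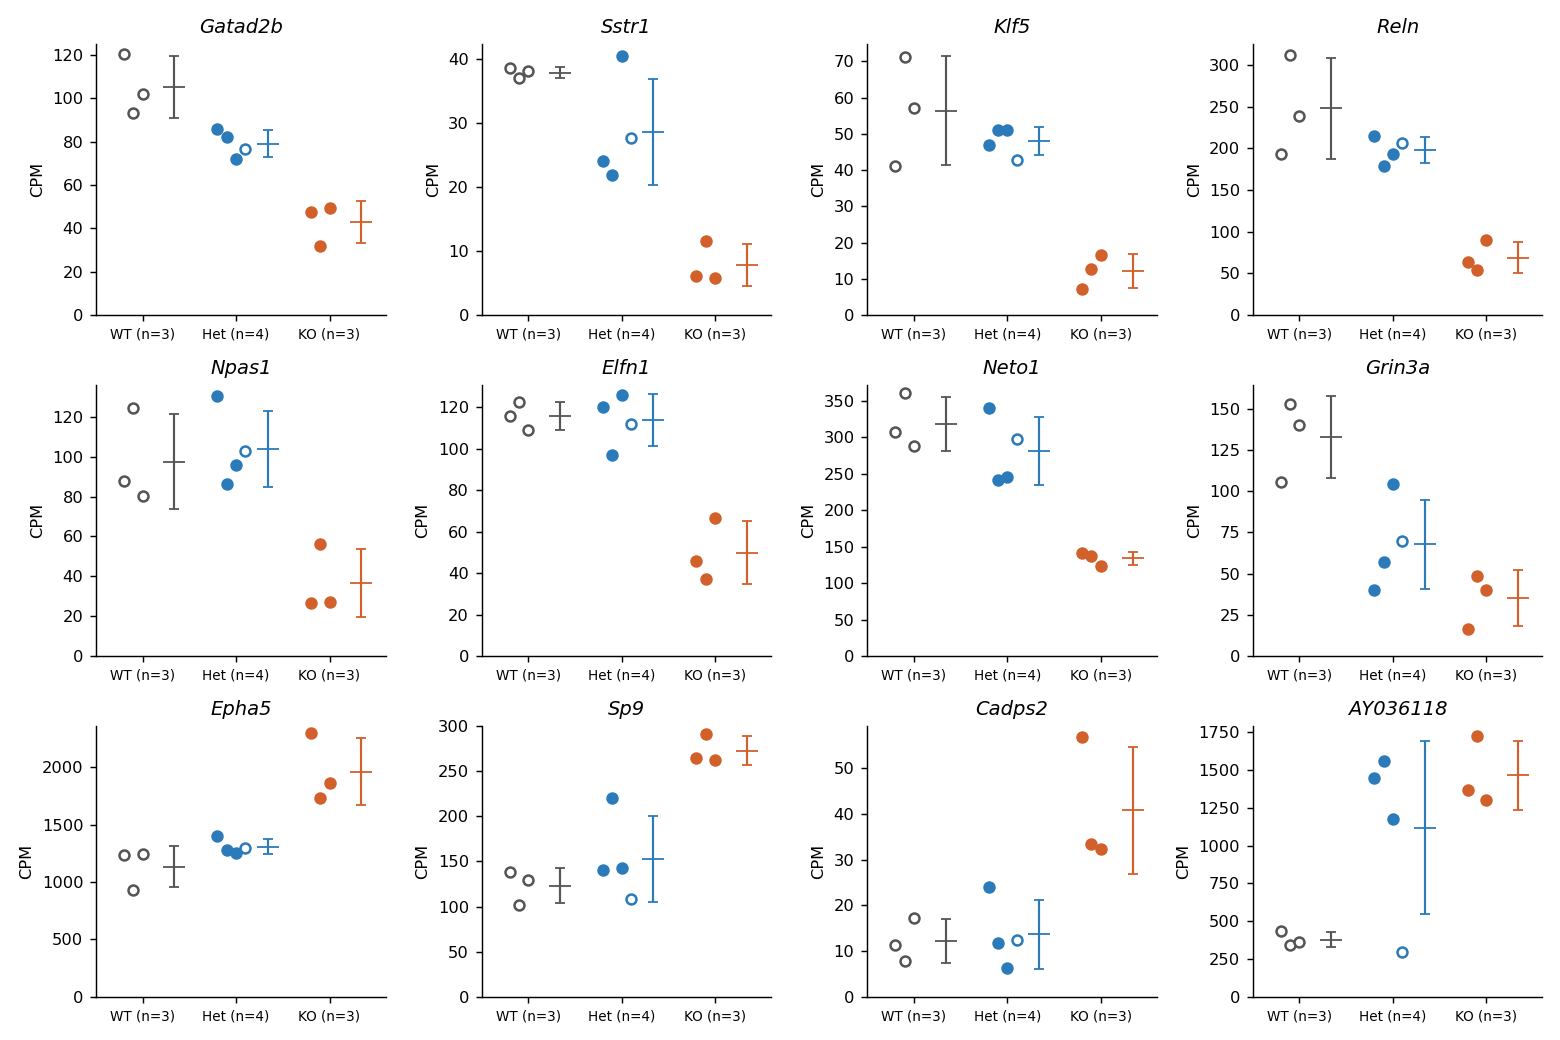
CPM of 12 genes in the Sst-high cells of each embryo (y axis from 0, a point per embryo), by genotype on the x axis, with mean ± SD. Open points are libraries of the first name prefix and filled points those of the second. Sstr1, Klf5, Reln, Npas1, Elfn1 and Neto1 are lower in all 3 KO embryos than in the other 7, and AY036118 separates the 2 prefixes, with Het replicate 4 at 294 CPM.

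Because KO embryos had fewer members with Npy, the changes were fitted again within members with Npy and within members without it, after the main results were seen. The counts of genes called in KO vs WT were 91 and 114, with fewer cells in each fit. Reln fell by 1.29 in cells with Npy (adjusted p = 0.00586) and by 3.14 in cells without (adjusted p = 0.00023). Sstr1 fell by 1.78 (adjusted p = 0.0153) and 3.57 (adjusted p = 0.00942), Grin3a by 1.26 (adjusted p = 0.0481) and 3.59 (adjusted p = 0.000119), Neto1 by 0.90 (adjusted p = 0.026) and 1.84 (adjusted p = 0.00371), and Elfn1 by 0.88 (adjusted p = 0.0416) and 1.52 (adjusted p = 0.016). Because Npy detection was lower in the KO embryos, each side of this division may hold different cells in KO and WT, so these fits do not separate a change in cells from a change within them. In KO vs Het, 0 genes were called in cells with Npy and 22 in cells without it. Npas1 passed in cells without Npy (-2.74, adjusted p = 0.00371) and not in cells with it (-0.91, adjusted p = 0.12). Sema3a had -2.06 (adjusted p = 0.00371) and -0.25 (adjusted p = 0.597). The differences between the 2 classes were not tested.

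The last comparison asked whether the genotype changes differ between the members and Sst-low Lhx6 cells, in a model with both groups of cells and each embryo as a block. Of 11697 genes tested, 0 differed in their Het vs WT change (406 at an unadjusted p under 0.05) and 56 in their KO vs WT change (0.479%, adjusted p under 0.05 by edgeR). The 10 largest differences at 20 CPM or more were those of Cldn5, Gng11, Igfbp7, Cd34, Higd1b, Rgs5, Ctla2a, Sparc, Egfl7 and Col4a2, which are genes of blood vessels. Cldn5, a tight junction protein of endothelium, had group means of 1.00 CPM in WT and 85.0 in KO in members, and of 33.1 and 0.704 in Sst-low Lhx6 cells. At least 1 UMI of the 4 endothelial markers was found in 2.71%, 1.93% and 3.29% of the members and in 5.10%, 2.26% and 1.71% of the Sst-low Lhx6 cells of WT, Het and KO. Without these cells 17 genes differed, all among the 56, and none of the 10 vascular genes was one of them. Rgs5 then had a difference of 2.38 (adjusted p = 0.619), Sparc 0.85 (adjusted p = 0.833) and Col4a2 0.46 (adjusted p = 0.956), and the other 7 were too low to be tested. Cldn5 is itself 1 of the 4 endothelial markers, so the removal left no UMI of it and its loss was fixed in advance.

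Among those 17 genes, named after their values were seen, Rnd3 had 134 CPM in WT and 65.3 in KO in the members, against 160 and 174 in Sst-low Lhx6 cells (difference -1.18, adjusted p = 0.000545). Cntn1, an adhesion molecule of axons, had 66.9 and 29.3 in members and 17.6 and 20.6 in Sst-low Lhx6 cells (difference -1.39, adjusted p = 0.00359). Sox4, a transcription factor of immature neurons, had 1196 and 2244 in members and 2123 and 2644 in Sst-low Lhx6 cells (difference 0.61, adjusted p = 0.00334). Igfbp4 had 68.9 and 215 against 129 and 190 (difference 1.07, adjusted p = 0.00186). For Reln (-1.67, adjusted p = 0.177), Sstr1 (-1.5, adjusted p = 0.655), Grin3a (-0.97, adjusted p = 0.174), Elfn1 (-0.77, adjusted p = 0.132), Klf5 (-0.67, adjusted p = 0.716) and Neto1 (-0.19, adjusted p = 0.866) the difference between the cell groups did not pass. Reln had 86.0 CPM in WT and 101 in KO in Sst-low Lhx6 cells. Klf5 and Neto1 also fell in Sst-low Lhx6 cells, by 1.53 (adjusted p = 0.00948) and 1.08 (adjusted p = 0.00186). Other named genes were called in Sst-low Lhx6 cells too, among them Npas1 (-1.08, adjusted p = 0.00583), Tshz3 (-0.97, adjusted p = 0.00017), Akap7 (-1.51, adjusted p = 0.000107), Sox6 (0.46, adjusted p = 0.00515) and Epha5 (0.62, adjusted p = 0.00408). The difference between the cell groups did not pass for any of these 5.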

How the data were processed

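Single-cell RNA-seq was done on 1 cortex library per embryo from 3 WT, 4 Het and 3 KO embryos, grouped by genotype as labelled. The authors deposited filtered matrices of raw UMI counts per gene and cell, made with Cell Ranger on mm10. The submitters' notes name Cell Ranger 6.0.2, and the study's methods name another version. All 80071 barcodes were read, and those under 1000 UMIs or above 10% mitochondrial UMIs were dropped. Doublet scores were computed with Scrublet (scanpy 1.11.5). Its own thresholds marked 0.0341% to 2.53% of cells, so the highest scores were marked at 0.8% per 1000 barcodes (5.17% to 8.66% of cells), and marked cells were kept except in an alternative.

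The members and gene lists were chosen with earlier results of these data known. UMIs were summed per embryo and tested with edgeR 4.0.16 (R 4.3.3; filterByExpr, TMM, quasi-likelihood test, all 10 embryos in the fit); CPM of single genes by genotype are on the TMM scale, and summed marker CPM and leading-gene CPM are plain. Shares and depths were compared by two-sided exact permutation tests over embryos (Python 3.11.15, numpy 2.4.6). The study describes the Het and WT embryos as littermates, and the labels do not say which embryos share a litter. Litter was not modelled in the tests, so the p-values measure the spread between these embryos. To compare detection, the mean probability of at least 1 UMI of a gene in a draw of 1000 UMIs per cell was computed. The gene tests on thinned cells used actual draws.

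Named genes were Gatad2b, the listed genes, the 10 largest called increases and decreases of each comparison with WT without overlap of embryos and at least 20 CPM in a group, and the 10 largest differences between cell groups. In simulated counts for KO vs WT (9583 genes), 8.96%, 61.2% and 93.9% of changes of 0.5, 1 and 2 on the log2 scale were called. Alternatives covered the selection limits, depth, filters, scaling, DESeq2 1.42.0, the library prefix, a replicate block and each embryo left out. Of 31053 gene IDs, 30934 were found in GENCODE vM21 (GRCm38), which gave the gene coordinates. Promoter sequences were taken from RefSeq (GRCm38.p6) by gene symbol.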

Additional observations from a re-analysis of the deposited data

Results flagged for a closer look

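In 3 of 43 groups of Het values examined (single genes, shares of cells and depth), 1 of the 4 Het embryos stood apart from the other 3. This was judged by Dixon's ratio of its gap to the range, above the critical value for 4 samples. About 1 group in 20 is marked in this way by chance. The ratio was 0.859 for Kcnc2, where Het replicate 3 had 54.5 CPM and the others 36.8 to 39.3. It was 0.836 for Penk and 0.907 for Trhde, the gene of an enzyme that degrades thyrotropin-releasing hormone. In both of these genes Het replicate 4, which shares the WT prefix, was the highest, at 8.5 CPM for Penk and 38.9 CPM for Trhde, against 16.0 to 18.2 CPM of Trhde in the other Het embryos.

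The KO vs WT change differed between Sst-high and Sst-low Lhx6 cells for 10 vascular genes, by an interaction term in edgeR with the embryo as a block. The differences (Sst-high minus Sst-low Lhx6 cells, log2) were 10.95 for Cldn5, 9.77 for Gng11, 9.77 for Igfbp7, 8.91 for Cd34, 8.36 for Higd1b, 7.92 for Rgs5, 7.70 for Ctla2a, 5.61 for Sparc, 5.20 for Egfl7 and 5.19 for Col4a2. The 4 endothelial markers summed to 333 CPM in the Sst-high cells of 1 KO embryo and to 12.3 CPM or less in the other 9. Without KO replicate 1 the difference was -0.12 for Cd34 and -0.53 for Higd1b. The other 8 kept their direction without it, but only Cldn5 (7.11, adjusted p = 0.0131) and Sparc (2.88, adjusted p = 0.0429) still passed. Without the cells that held an endothelial UMI, 3 of the 10 genes could be tested and none passed, with 2.38 for Rgs5, 0.85 for Sparc and 0.46 for Col4a2. Cldn5 could not be tested there, as it is 1 of the 4 markers that chose the cells to remove.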

How the results depend on the processing

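The lower Npy share in KO kept its direction under all settings tried. The share of Sst-high cells gave no call under any setting. For KO vs WT this was fixed in advance, since 3 against 3 embryos give an exact permutation p of 0.1 or more. With an embryo left out no comparison could pass either. The small differences turned. For Het vs WT the difference became -0.00701 percentage points with at least 3000 UMIs and 0.347 with Het replicate 4 alone. It ranged from -0.0685 to 0.279 with each embryo left out. For KO vs WT it became 0.268 with no Neurod6 UMI. With each embryo left out it ranged from -0.389, without KO replicate 3, to -0.0230, without KO replicate 2. The Calb1 difference in KO vs WT turned to 0.874 with Sst at least 10, to 0.975 with no Neurod6 UMI, and ranged from -1.38 to 0.420 with each embryo left out. The difference in UMIs per cell for Het vs WT ranged from -1963 to 404, the last without WT replicate 2. With each embryo left out, the difference for KO vs WT ranged from -2477.5, without WT replicate 1, to -110.5, without WT replicate 2.

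Genes called in Het vs WT (0) became 150 without the filter on low counts, 3 at 5% mitochondrial UMIs, 2 with thinned cells, 1 with the prefix as covariate, 8 by DESeq2 and 0 to 24 with each embryo left out, the 24 without Het replicate 4. Genes called in KO vs WT (264) became 777 without the filter, 57 with thinned cells (3054 genes tested), 91 with Npy and 114 without it, 3 with the prefix as covariate, and 97 to 303 with each embryo left out. The lowest of these were 97 without WT replicate 2, 137 without WT replicate 3, 150 without KO replicate 1 and 130 without KO replicate 2. Genes called in KO vs Het (30) became 435 without the filter, 13 with Sst at least 10, 11 with thinned cells, 74 with no Neurod6 UMI, 0 in cells with Npy, 18 with the prefix as covariate, 59 by DESeq2, and 8 to 38 with each embryo left out (8 without KO replicate 1, 13 without KO replicate 3, 18 without Het replicate 4). The settings with no Neurod6 UMI for genes, with or without Npy, and without endothelial UMIs were chosen after seeing the data.

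With the replicate number as a block, for embryos numbered 1 to 3, the calls were 32 for Het vs WT, 400 for KO vs WT and 50 for KO vs Het, against 24, 303 and 18 in the same embryos without the block. Deviations of same-numbered embryos correlated between -0.136 and 0.175, so the numbers were not taken to pair the samples.

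Genes whose change differs between the cell groups became 57 for Het vs WT without the filter, 4 with thinned cells and 0 to 2 with each embryo left out. For KO vs WT (56) they became 249 without the filter, 1 with thinned cells, 17 without endothelial UMIs, and 19 to 92 with each embryo left out (30 without WT replicate 1, 28 without WT replicate 3, 19 without KO replicate 1, 92 without KO replicate 3). AY036118 turned to -0.29 with the prefix as covariate. With each embryo left out, Cd34 ranged from -0.12 to 12.85 and Higd1b from -0.53 to 9.09, the lowest without KO replicate 1. Of the values of named genes under the alternatives, 1120 kept their direction and side of the threshold, 332 lost the call, 11 gained it, all of them Npy in KO vs WT, and 3 turned. Where no value above shows it, the cause was not tested. From 74 to 180 cells were summed per embryo, and in simulated counts for KO vs WT 8.96% of changes of 0.5 on the log2 scale were called.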
